A study of Mus musculus with 9 samples.

Results

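The genes described are 10 members of the Notch pathway and of the transcription factors that act after it in the choice of intestinal cell fate. They were taken by symbol from both deposited FPKM tables: the receptors Notch1 and Notch2, the ligands Jag1, Dll1 and Dll4, the target Hes1, and the secretory fate factors Atoh1, Neurog3, Gfi1 and Spdef. All 10 were found in each table, out of 23951 genes, and all 10 passed the filter on low values, a mean of at least 1 FPKM over the 6 libraries of a table. RNA was sequenced from mouse jejunal crypts, the proliferative pockets of the small intestinal epithelium, in 9 libraries, 3 in each of 3 groups. Smad4 KO mice were Smad4f/f;Villin-CreER(T2), that is, both alleles of Smad4, which carries BMP and TGF-beta signals to the nucleus, were floxed, and the tamoxifen-inducible recombinase was driven by the Villin promoter in the intestinal epithelium. Double mutants were Smad4f/f; Ex3f/+;Villin-CreER(T2), with a further floxed allele, named in the sample titles as beta-catenin exon 3, which encodes the sites that mark beta-catenin for degradation, so that recombination stabilises this effector of Wnt signalling. Mutants of either kind were given tamoxifen for 4 days in a row, and crypts were taken 1 day after the last dose. Controls have no genotype in the labels beyond that word, and are given as vehicle-treated in one place and as uninjected in another. Genotype, recombinase and tamoxifen therefore cannot be told apart, and ages and the number of mice are not given. Whether each library is a different mouse is not stated, so p-values measure only the spread between these libraries.

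Notch receptors are cleaved when a ligand on a neighbouring cell binds them, and the released intracellular part joins the DNA-binding protein Rbpj to switch on targets such as Hes1. In the intestine, Hes1 represses Atoh1: cells with Notch signal become absorptive progenitors, while cells that escape it express Atoh1 and enter the secretory lineages. Within those lineages Neurog3 starts the enteroendocrine programme, Gfi1 restrains it in favour of goblet and Paneth cells, and Spdef promotes the maturation of goblet and Paneth cells. Dll1 and Dll4 are the ligands that maintain crypt stem cells, and Wnt signals from the crypt base act on the same cells.

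The 2 tables hold the same 3 controls and were normalized separately, so every comparison stays within a table, each mutant group has the control values of its own table beside it, and the 2 mutant groups were not tested against each other. FPKM is fragments per length of transcript and per library size, so levels of different genes can be compared. The absolute depth is unknown. Relative depth, estimated from the lowest values, was 0.965 to 1.42 times that of control 0. Smad4 checked the labels of mutants against those of controls. It was at 11.0, 9.96 and 10.8 FPKM in Smad4 KO libraries 0, 1 and 2 (control 46.1, 55.5 and 47.8). In double-mutant libraries it was at 11.2, 10.2 and 9.95 FPKM (control 47.5, 58.8 and 49.8), with no overlap in either table. Being low in both mutant groups, Smad4 cannot tell these groups apart, and recombination of beta-catenin exon 3 was not checked. Crypt markers were present in every library: the stem cell gene Olfm4 averaged 683 ± 416 FPKM in Smad4 KO against 1000 ± 425 in controls, and 1101 ± 302 FPKM in double mutants against 1047 ± 456 in controls (SD, n = 3 each). Of 6 stem cell markers 2 were called higher in double mutants (33.3%, against 18.5% of all genes called, 9.39% as higher). These were Lgr5 (229% of control, limma adjusted p = 0.0203) and Smoc2 (174%, limma adjusted p = 0.0142). The others were not called, with Rgmb at 135% of control, Ascl2 at 112%, Axin2 at 108% and Olfm4 at 105%. In Smad4 KO none of the 6 was called, and 2 had a positive and 4 a negative change (median -0.26). Lgr5 was at 147% of control there, Smoc2 at 152%, Rgmb at 101%, Axin2 at 72.5%, Olfm4 at 68.3% and Ascl2 at 59.9%. Lgr5 spread widely in Smad4 KO, at 2.64, 9.32 and 19.1 FPKM against 8.43, 6.72 and 6.04 in controls. 3 libraries stood apart. Smad4 KO 0 had the lowest summed FPKM of 14 Paneth markers (10619, against 76738 and 165490 in Smad4 KO 1 and 2 and 64924 to 173182 in controls) and the highest of 10 enterocyte markers (14081, against 992 and 2205 in the other Smad4 KO libraries and 3659 to 10442 in controls). Smad4 KO 2 and double mutant 0 had the highest sums of 10 stromal markers, 91.1 and 58.5 FPKM, against 5.40 to 9.45 in controls over both tables. In bulk tissue, fewer cells of a type and less RNA per cell cannot be told apart.

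The members spanned a range of levels, with the same 4 genes on top in all groups. In controls of the first table Hes1 (46.1 ± 4.05 FPKM) and Spdef (40.4 ± 23.1) were highest, followed by Atoh1 (20.5 ± 6.34) and Dll1 (14.3 ± 2.98; SD, n = 3 each), and the ranges of each of these neighbours overlapped. Dll1 did not overlap the next gene, in controls or in either mutant group. Notch1 (5.97 ± 0.522 FPKM), Dll4 (5.70 ± 1.32), Gfi1 (4.62 ± 1.78), Neurog3 (4.52 ± 0.0763) and Jag1 (4.26 ± 0.580) formed a group in which each overlapped its neighbour, and Notch2 (3.34 ± 0.438; SD, n = 3 each) had the lowest mean, with no overlap with Jag1 but within the range of Gfi1 (2.59 to 5.85 FPKM). Hes1 was above 83.9% of the genes tested and Notch2 above 16.9%. In double mutants Neurog3 moved up the order, to the fifth place, against the eighth in controls, and lay above Jag1, Dll4, Notch1, Gfi1 and Notch2 with no overlap with Jag1, its next neighbour (8.25 to 13.7 FPKM for Neurog3 and 6.29 to 7.96 FPKM for Jag1).

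**Figure D1:**
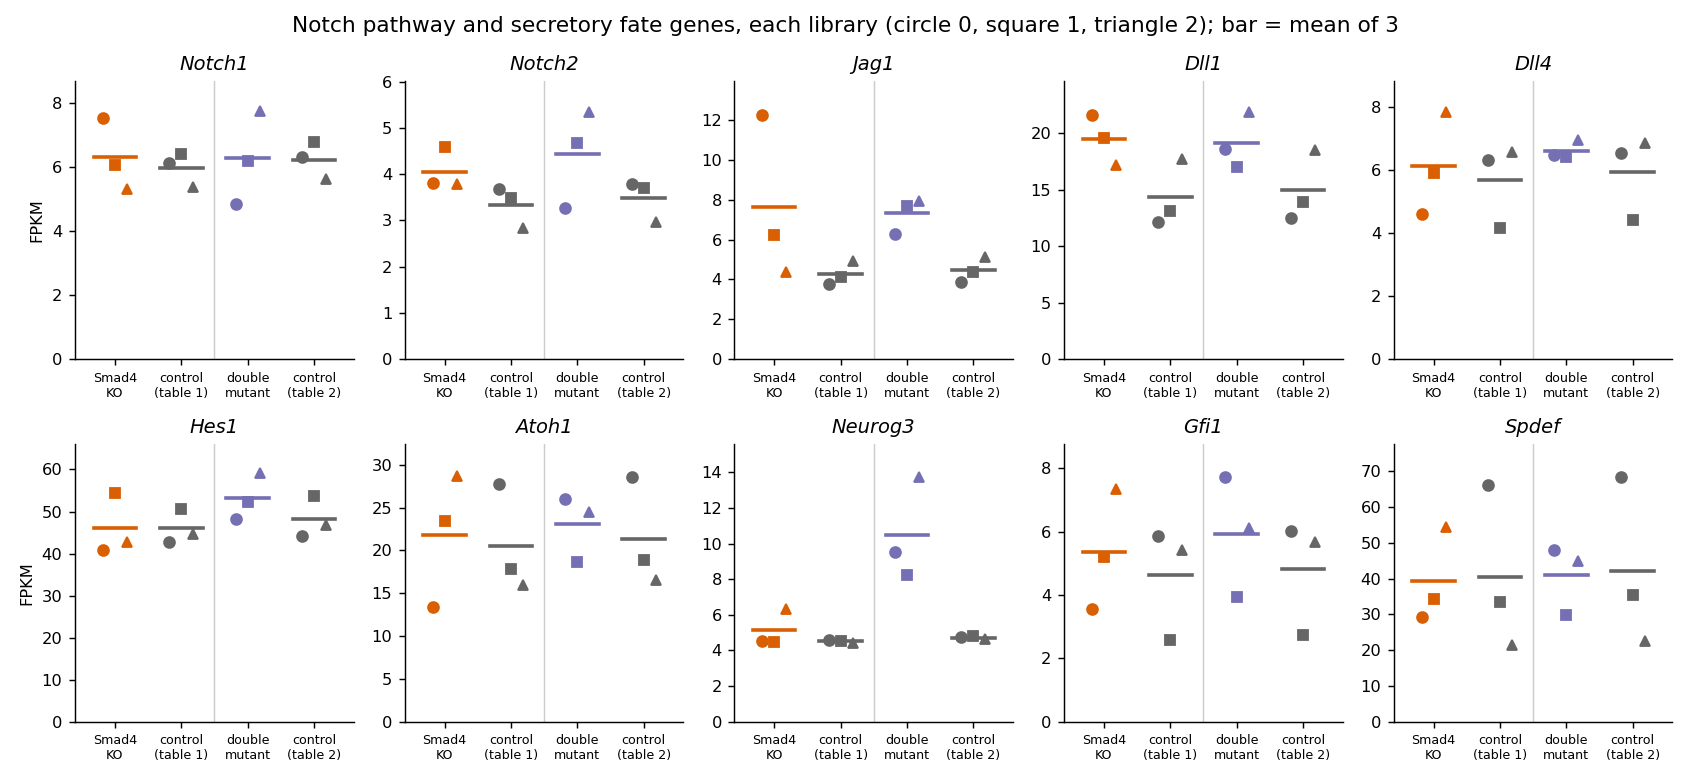
FPKM of each of the 10 genes in every library, for Smad4 KO, the controls of its table, the double mutants and the controls of theirs; symbols mark the library number and bars the mean of 3. Neurog3 lies between 8.25 and 13.7 FPKM in the double mutants, above controls at 4.64 to 4.80, and Jag1 lies above all controls in the same group, while Spdef, Atoh1 and Gfi1 spread widely within each group.

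2 of the 10 members rose in the double mutants and none fell: Neurog3, the enteroendocrine determinant, to 222% of its control mean, and the ligand Jag1 to 164%. Across all genes of that table limma called 18.5% at an adjusted p below 0.05, 9.39% as higher and 9.09% as lower, so 2 of 10 called is close to the share of all genes. In Smad4 KO limma called no member, higher or lower, where it called 0.0338% of all genes (0.00844% higher and 0.0253% lower). At an unadjusted p below 0.05 there was 1 member, Dll1, against 19.1% of all genes tested. The median change of the 10 members was 0.21 in double mutants, where the median of all genes was -0.0013, and 0.11 in Smad4 KO, where it was -0.0032. All such changes are differences of log2(FPKM + 1), smaller than the true log2 ratio where a gene is low, and 9 of 10 members had a positive value in each comparison. The comparisons share their control libraries, so these counts are not independent.

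Promoters of Jag1 and Neurog3, which rose in the double mutants, are shown so that their sequence can be read beside the values. That of Atoh1, which stands above Neurog3 in the secretory pathway and did not pass, is shown with them. RefSeq's table (GRCm38.p6) held 11 promoters for 9 of the 10 members, all but Hes1, each running from 250 bases before to 50 bases after a gene's start. Capitals mark CTTTGA, a core of TCF/LEF sites through which beta-catenin acts, and CAGCTG, an E-box of the kind that bHLH factors such as Atoh1 and Neurog3 bind, on either strand (TCAAAG is CTTTGA on the other strand). The Jag1 promoter, chr2:137116471-137116770 on the minus strand, held 1 of each.
Jag1: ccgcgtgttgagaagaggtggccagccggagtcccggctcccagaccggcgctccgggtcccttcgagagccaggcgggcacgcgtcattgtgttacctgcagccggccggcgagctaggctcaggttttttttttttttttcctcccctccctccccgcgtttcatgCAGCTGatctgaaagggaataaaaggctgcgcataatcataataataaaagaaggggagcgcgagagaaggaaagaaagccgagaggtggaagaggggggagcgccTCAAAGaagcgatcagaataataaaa
The Neurog3 promoter, chr10:62132840-62133139 on the plus strand, held CAGCTG and no CTTTGA.
Neurog3: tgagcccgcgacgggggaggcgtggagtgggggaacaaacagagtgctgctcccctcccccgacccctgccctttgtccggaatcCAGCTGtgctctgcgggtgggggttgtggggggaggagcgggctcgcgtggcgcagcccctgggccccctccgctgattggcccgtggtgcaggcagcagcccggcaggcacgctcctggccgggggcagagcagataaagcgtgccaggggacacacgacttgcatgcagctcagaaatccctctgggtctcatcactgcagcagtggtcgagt
The Atoh1 promoter, chr6:64728875-64729174 on the plus strand, held CTTTGA at 2 places.
Atoh1: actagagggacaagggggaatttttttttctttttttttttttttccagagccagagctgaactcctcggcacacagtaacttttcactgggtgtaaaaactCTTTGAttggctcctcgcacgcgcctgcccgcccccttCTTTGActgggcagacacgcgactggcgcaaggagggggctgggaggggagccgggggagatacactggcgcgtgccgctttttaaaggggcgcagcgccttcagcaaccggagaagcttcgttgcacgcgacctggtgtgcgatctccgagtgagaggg
Of all 32851 promoters in the table, 16.0% held CTTTGA, 1.73% held it at 2 or more places, and 16.3% held CAGCTG. Among the 11 promoters of the members, 2 held CTTTGA and 3 held CAGCTG. 2 further motifs were searched on both strands: TGGGAA, a core of Rbpj sites, was in 1 of the 11 (Spdef; 25.6% of all promoters), and CACNAG, the N-box that Hes1 binds, was in 5 (42.5% of all). These motifs were chosen after the sequences had been seen, and the build differs from the mm9 of the expression tables. A match is a run of letters and not a shown binding site.

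The receptors did not pass in either comparison. Notch1, the main receptor of crypt progenitors together with Notch2, was at 7.55, 6.07 and 5.31 FPKM in Smad4 KO (control 6.12, 6.39 and 5.38) and at 4.86, 6.20 and 7.76 FPKM in double mutants (control 6.31, 6.78 and 5.62). The mutant libraries lay on both sides of the controls, and the log2 fold changes were 0.061 (95% interval -0.31 to 0.43) and -0.0083 (-0.41 to 0.40). Notch2 was at 3.80, 4.59 and 3.78 FPKM in Smad4 KO, all above controls at 3.68, 3.49 and 2.85. This lack of overlap, found for 1 of the 10 members and for 26.4% of all genes in that table (14.2% higher and 12.2% lower), came with a log2 fold change of 0.22 (95% interval -0.13 to 0.57, limma adjusted p = 0.446). In double mutants Notch2 was at 3.27, 4.69 and 5.35 FPKM (control 3.79, 3.70 and 2.97), where library 0 fell inside the range of the controls.

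Among the ligands, Jag1 rose in the double mutants. Jag1, a membrane ligand of Notch receptors, was at 6.29, 7.70 and 7.96 FPKM in double-mutant libraries 0, 1 and 2, against 3.88, 4.36 and 5.11 in controls, so that all 3 mutant libraries lay above all controls. The log2 fold change was 0.61 (SE 0.14, 95% interval 0.28 to 0.94, limma adjusted p = 0.0328). Groups did not overlap for 2 of the 10 members, both higher, and for 42.6% of all genes in that table (21.3% higher and 21.3% lower). The Jag1 call ended without double mutant 0 (log2 fold change 0.70, limma adjusted p = 0.0653), double mutant 1 (0.57, 0.0853), double mutant 2 (0.55, 0.126), control 0 (0.53, 0.0713) or control 1 (0.60, 0.072), and held without control 2 (0.70, limma adjusted p = 0.0455). It also ended with sex as a covariate (limma adjusted p = 0.060), without a filter on low values (0.0635) and with all 9 libraries in one fit (0.194).

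In Smad4 KO, Jag1 was at 12.3, 6.23 and 4.39 FPKM (control 3.77, 4.11 and 4.90). Library 0 was the highest of all 6, library 1 lay above the controls and library 2 among them. The mean change was as large as in the double mutants, 0.62, but with a 95% interval of -0.20 to 1.43 it did not pass (limma adjusted p = 0.366), and it was 0.25 without Smad4 KO 0. Stromal and endothelial cells also express Jag1. Smad4 KO 2 and double mutant 0, the libraries with the highest stromal sums, had the lowest Jag1 of their groups, but Smad4 KO 0, with the highest Jag1, also had a stromal sum above its controls (24.5 FPKM, against 5.40 to 9.06), and the part of stromal cells was not tested. The 8 endothelial markers summed to 5.94, 4.28 and 5.10 FPKM in double mutants, against 4.60, 3.17 and 2.68 in controls. Most of that sum was Esam, at 5.28, 3.92 and 4.72 FPKM in double mutants, above all controls at 3.85, 2.83 and 1.78 (limma adjusted p = 0.116). The defining endothelial gene Cdh5 was near 0, at most 0.0432 FPKM in double mutants and 0.0387 in controls, and the part of Esam-expressing cells in the Jag1 change was not tested.

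Dll1, the ligand of early secretory progenitors, was at 21.6, 19.6 and 17.2 FPKM in Smad4 KO (control 12.1, 13.1 and 17.7). Libraries 0 and 1 lay above all controls and library 2 just inside their range, with a log2 fold change of 0.43 (95% interval 0.020 to 0.84, limma adjusted p = 0.249). Dll1 was at 18.6, 17.0 and 21.9 FPKM in double mutants (control 12.5, 13.9 and 18.5), a change of 0.35 (95% interval -0.058 to 0.75, limma adjusted p = 0.188). Thus 2 of 3 libraries of each mutant group were above the highest control, and neither comparison passed. Dll4, which acts with Dll1 on stem cells, was at 4.61, 5.90 and 7.85 FPKM in Smad4 KO (control 6.34, 4.18 and 6.58) and at 6.49, 6.44 and 6.95 FPKM in double mutants (control 6.54, 4.43 and 6.87). It overlapped the controls in both tables, with changes of 0.084 (95% interval -0.48 to 0.65) and 0.15 (-0.24 to 0.54).

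Hes1, the target that reads out Notch signalling and represses Atoh1, did not pass in either comparison. It was at 40.9, 54.4 and 42.8 FPKM in Smad4 KO (control 42.8, 50.6 and 44.7), a mean of 99.9% of control with a log2 fold change of -0.0086 (95% interval -0.36 to 0.34). In double mutants it was at 48.3, 52.2 and 59.2 FPKM (control 44.2, 53.6 and 46.7), 111% of control with a change of 0.14 (95% interval -0.15 to 0.43, limma adjusted p = 0.431). Over the 9 libraries, the genes whose centred log2 levels ran closest to those of Hes1 were Anp32a, Ctcf and Zbtb1, at root mean square distances of 0.049, 0.059 and 0.060, out of 10815 genes compared, where Hes1 itself lay 0.16 from the control mean.

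**Figure D2:**
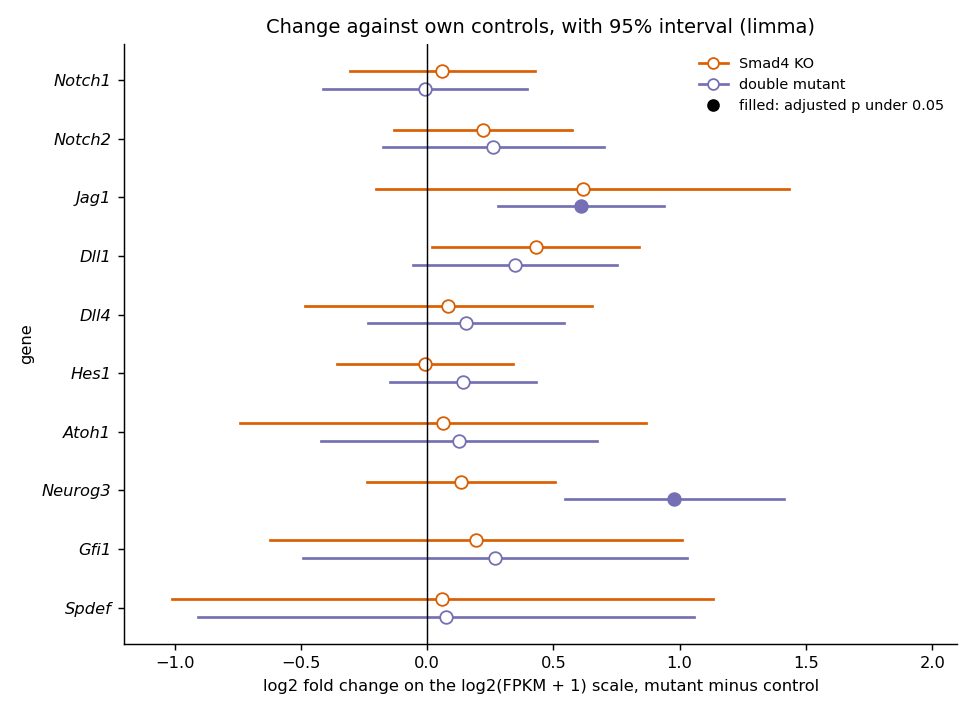
Log2 fold change of each gene with its 95% interval from limma, in Smad4 KO (orange) and double mutants (violet) against the controls of the same table; filled points had an adjusted p below 0.05. The intervals of Neurog3 (0.55 to 1.41) and Jag1 (0.28 to 0.94) in double mutants lie above 0, and those of Atoh1, Gfi1 and Spdef are wide in both comparisons.

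Of the secretory fate factors, Neurog3 rose in the double mutants. It was at 9.55, 8.25 and 13.7 FPKM in double-mutant libraries 0, 1 and 2, against 4.74, 4.80 and 4.64 in controls, whose SD was only 0.0814. All 3 mutant libraries lay above all controls. The log2 fold change was 0.98 (SE 0.18, 95% interval 0.55 to 1.41, limma adjusted p = 0.0218), and Neurog3 ranked 726 of 11762 genes by p. The call held in all 11 other settings tried with the 6 libraries or 9 libraries (limma adjusted p = 0.0181 to 0.0418). Leaving out 1 library, it held without double mutant 1 or control 0, and ended without double mutant 0 (0.0679), double mutant 2 (0.0683), control 1 (0.0515) or control 2 (0.0533), with log2 fold changes of 0.79 to 1.12 over the 6 fits.

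In Smad4 KO, Neurog3 was at 4.55, 4.47 and 6.35 FPKM (control 4.60, 4.53 and 4.45). Libraries 0 and 1 sat at the control level and library 2 above it, with a log2 fold change of 0.13 (95% interval -0.24 to 0.51, limma adjusted p = 0.664) that was -0.0044 without library 2. Smad4 KO 2 was the library with the stromal sum of 91.1 FPKM, whose part in this value was not tested. In the double mutants the highest Neurog3 was in library 2, where the stromal sum, 8.54 FPKM, was in the range of controls. The difference between the mutant groups was not tested, since their tables were normalized separately. The ratio of Neurog3 to Atoh1 was 0.37, 0.44 and 0.56 in double mutants against 0.17, 0.25 and 0.28 in controls, and 0.34, 0.19 and 0.22 in Smad4 KO against the same control ratios.

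Atoh1, the factor that commits cells to secretory fates, did not pass. It was at 13.4, 23.4 and 28.7 FPKM in Smad4 KO (control 27.7, 17.8 and 15.9) and at 26.0, 18.6 and 24.4 FPKM in double mutants (control 28.6, 18.9 and 16.6). The controls alone spread from 15.9 to 27.7, and the double mutants lay wholly inside their range. The log2 fold changes were 0.062 (95% interval -0.74 to 0.87) and 0.13 (-0.42 to 0.67), so that both falls and rises remain within each interval. Nudt22, Casc4 and Rap1gap ran closest to Atoh1 over the 9 libraries, at root mean square distances of 0.096, 0.10 and 0.10, where Atoh1 itself lay 0.35 from the control mean.

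Spdef was at 29.3, 34.4 and 54.3 FPKM in Smad4 KO (control 66.2, 33.4 and 21.6) and at 48.0, 29.8 and 44.8 FPKM in double mutants (control 68.3, 35.4 and 22.5). Both mutant groups fell inside the range of the controls, which was the widest of the 10 members. Gfi1 was at 3.56, 5.21 and 7.34 FPKM in Smad4 KO (control 5.85, 2.59 and 5.43) and at 7.73, 3.95 and 6.13 FPKM in double mutants (control 6.04, 2.74 and 5.66), again overlapping. The log2 fold changes were 0.061 and 0.074 for Spdef (95% intervals -1.01 to 1.13 and -0.91 to 1.06) and 0.19 and 0.27 for Gfi1 (-0.62 to 1.01 and -0.49 to 1.03).

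The spread of Atoh1, Spdef and Gfi1 within groups can be read library by library. The ratio of Spdef to Atoh1 averaged 1.85 ± 0.363 in Smad4 KO and 1.76 ± 0.140 in double mutants, against 1.87 ± 0.516 in controls (SD, n = 3 each), and the ranges overlapped. Smad4 KO 2 and control 0 had the highest Atoh1 and Spdef of the first table, and Gfi1 was highest in the same pair of libraries. The Paneth marker list was also highest in this pair within the first table, by its mean log2 level less that of the controls. This was -3.07, -0.23 and 1.11 in Smad4 KO 0, 1 and 2, and 0.98, -0.58 and -0.40 in controls 0, 1 and 2. Smad4 KO 0 was also the library with the lowest Atoh1. In double mutants 0, 1 and 2 the Paneth list was at 0.47, -1.18 and -0.88. Atoh1 there, on the same measure, was at 0.31, -0.15 and 0.22, so the list was low in double mutant 2 where Atoh1 was not. The goblet list, on the same measure, spread less and in another order: it was -0.19, -0.030 and 0.061 in Smad4 KO 0, 1 and 2 and 0.17, -0.28 and 0.11 in controls 0, 1 and 2. The part of Paneth and goblet cell number in the spread of Atoh1 and Spdef was not tested.

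**Figure D3:**
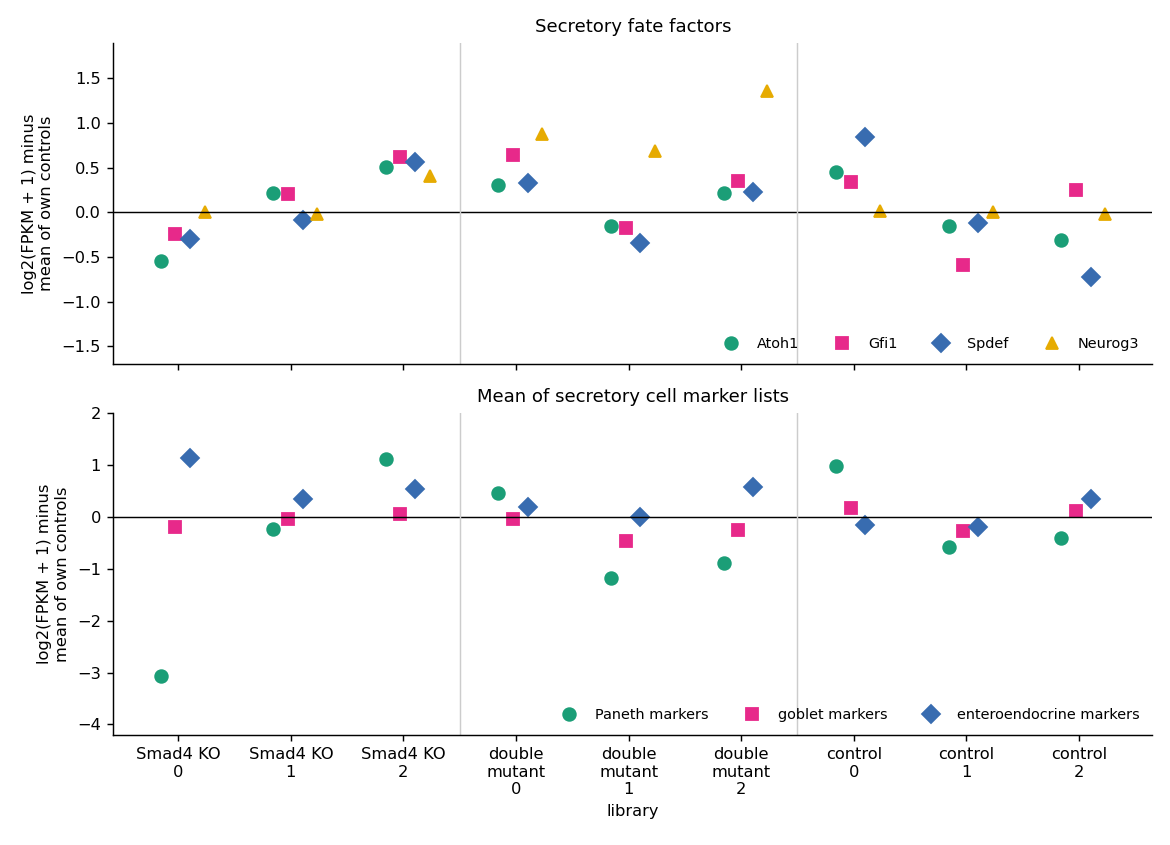
Level in each library minus the mean of the controls of its table, on the log2(FPKM + 1) scale, for Atoh1, Gfi1, Spdef and Neurog3 (upper panel) and for the mean of the Paneth, goblet and enteroendocrine marker lists (lower panel); controls are those of the first table. Neurog3 stands apart in the 3 double-mutant libraries, while Smad4 KO 0 has the lowest Atoh1 and a Paneth list mean at -3.07.

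Other genes of the Notch pathway were taken from a list of 50, of which 37 were tested in each comparison. In double mutants 5 were called, 2 higher and 3 lower (13.5%, against 18.5% of all genes), with a median change of -0.011. Both called higher are targets or relatives of Notch targets: Nrarp, which Notch induces and which feeds back to limit it, and Hes6, a Hes family member that opposes Hes1. Nrarp was at 19.5, 21.2 and 23.0 FPKM in double mutants, all above controls at 13.1, 14.1 and 16.8 (a change of 0.51, SE 0.12, limma adjusted p = 0.0366). Hes6 was at 69.7, 56.3 and 65.4 FPKM in double mutants, all above controls at 47.4, 37.9 and 37.0 (a change of 0.64, SE 0.14, limma adjusted p = 0.0299). The list's other tested targets did not pass: the stem cell gene Olfm4, which Notch activates in crypts, had a change of 0.13, and Hes2 one of -0.83 (limma adjusted p = 0.0724).

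The 3 called lower had all been listed under ligand or receptor trafficking, a role with 11 genes tested. The ubiquitin ligase Itch was at 17.4, 21.5 and 19.6 FPKM in double mutants, against 32.1, 32.02 and 42.4 in controls (a change of -0.82, SE 0.14, limma adjusted p = 0.0201). Dtx3l, of the Deltex family of ubiquitin ligases, was at 10.9, 14.6 and 11.6 FPKM in double mutants against 22.6, 19.2 and 22.5 in controls (-0.75, SE 0.13, limma adjusted p = 0.0205). Numb, the adaptor that inhibits Notch, was at 17.7, 19.7 and 20.0 FPKM in double mutants against 23.6, 29.3 and 30.2 in controls (-0.51, SE 0.12, limma adjusted p = 0.0371). All 3 lay below every control. Groups did not overlap for 13 of the 37 listed genes (4 higher and 9 lower), against 42.6% of all genes. Of the 6 fits that left out 1 library, the Itch call held in 4 (it ended without double mutant 0 or double mutant 2) and the Dtx3l call in 3 (it ended without either of these or control 2). The calls of Hes6 and Numb held in 1, the fit without control 0, and that of Nrarp in 1, the fit without control 2. Without double mutant 0 or double mutant 2, 139 or 30 genes were called in all. With sex as a covariate the calls of Hes6, Nrarp and Numb ended, those of Nrarp and Numb also ended without a filter and with all 9 libraries in one fit, and that of Numb without the 50 highest genes in the scaling. The sum of 10 enterocyte markers was 1076, 2101 and 2051 FPKM in the same double mutants against 3773, 5235 and 10891 in controls. Of these markers 9 of 10 were called lower (90%, against 9.09% of all genes). Of 10 immune markers 8 were tested and 4 were called lower (50%, against the same 9.09%). Among them were Ptprc, found on all leukocytes (2.91, 1.17 and 2.81 FPKM in double mutants against 7.19, 4.78 and 10.4 in controls), and the T cell gene Cd3g (3.24, 2.21 and 3.86 against 11.8, 7.96 and 18.7). The part of either marker list in these changes was not tested.

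In Smad4 KO none of the 37 was called by limma, and 3 had an unadjusted p below 0.05, a smaller share than the 19.1% of all genes. Itch was at 20.4, 19.3 and 20.8 FPKM in Smad4 KO, again below every control (31.1, 30.2 and 40.7), with a log2 fold change of -0.71 (SE 0.14, limma adjusted p = 0.116). Of the alternatives tried, it passed only with all 9 libraries in one fit (limma adjusted p = 0.032, and 0.0953 to 0.337 in the others). Nrarp, Dtx3l and Numb, called in double mutants, changed by 0.43, -0.33 and -0.32 in Smad4 KO (limma adjusted p = 0.375, 0.408 and 0.356). Hes6 was at 49.5, 49.0 and 64.9 FPKM against 46.0, 35.7 and 35.5 in controls (0.47, limma adjusted p = 0.217), and Aph1a, a subunit of the gamma-secretase that cleaves Notch, was at 7.84, 7.10 and 6.90 FPKM against 9.36, 10.1 and 9.25 in controls (-0.35, limma adjusted p = 0.173). The groups did not overlap for Itch, Hes6 or Aph1a, the 3 genes named for the smallest p. Over the list they did not overlap for 7 of the 37 tested, against 26.4% of all genes.

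**Figure D4:**
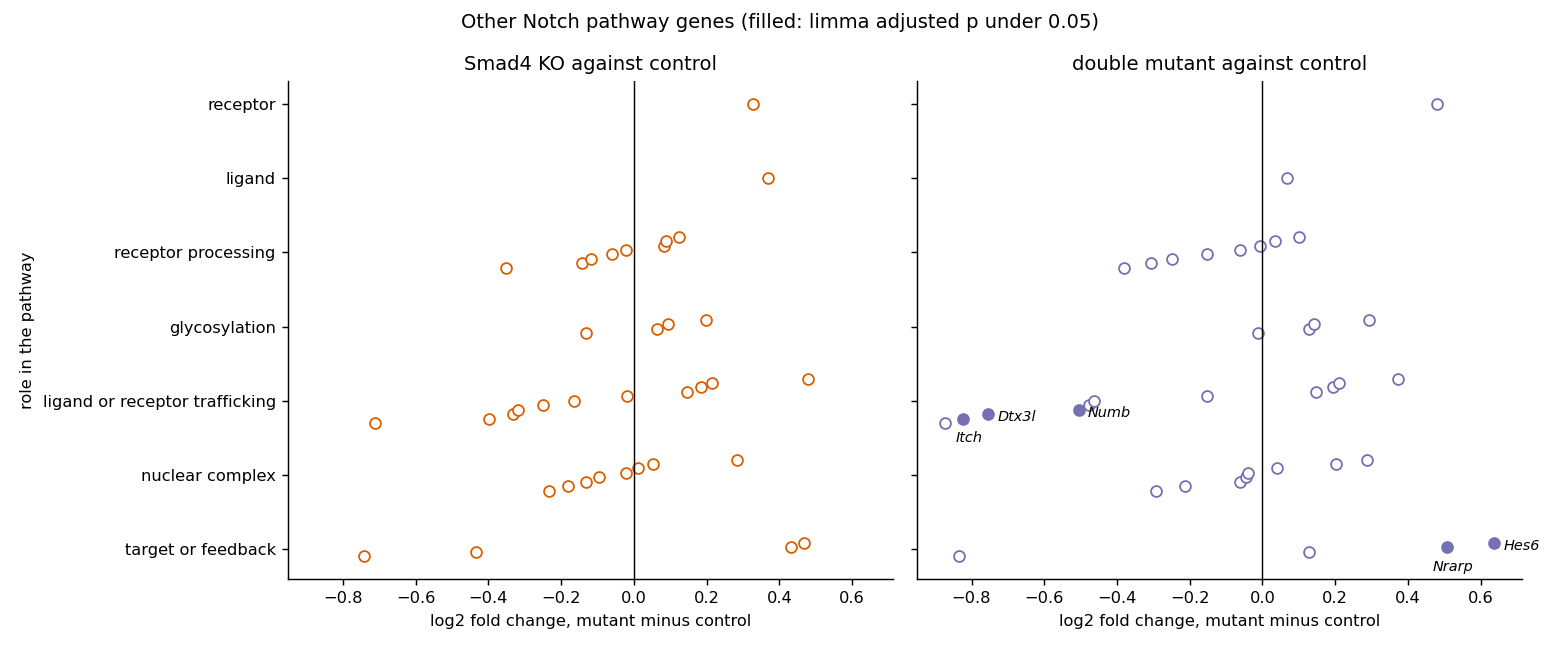
Log2 fold change of the 37 other Notch pathway genes tested, by role, in Smad4 KO (left) and double mutants (right); each point is a gene, and filled points had a limma adjusted p below 0.05. Filled points appear in the right panel alone: Itch, Dtx3l and Numb lie at -0.82 to -0.51, and Nrarp and Hes6 at 0.51 and 0.64; whether the mutant groups differ was not tested.

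Of 27 further transcription factors of secretory lineages, 20 were tested in double mutants, and 2 were called higher and 1 lower (15%, against 18.5% of all genes, with a median change of 0.41). Insm1, which acts after Neurog3 in enteroendocrine cells, was at 3.57, 2.65 and 3.93 FPKM in double mutants, above all controls at 1.83, 1.86 and 1.58 (a change of 0.66, SE 0.16, limma adjusted p = 0.0386). Foxa2, a forkhead factor of enteroendocrine and goblet cells, was at 7.13, 6.18 and 7.57 FPKM in double mutants against 5.08, 3.97 and 3.48 in controls (0.63, SE 0.15, limma adjusted p = 0.037). Klf4, a factor of goblet cell maturation and of differentiated cells, was lower at 15.4, 14.4 and 16.2 FPKM in double mutants against 23.3, 19.5 and 22.5 in controls (-0.48, SE 0.10, limma adjusted p = 0.029). The calls of Insm1, Foxa2 and Klf4 each held in 1 of the 6 fits that left out 1 library, namely without double mutant 1, control 0 and control 1 in that order. The calls of Insm1 and Foxa2 also ended with the replicate block (limma adjusted p = 0.0715 and 0.0597), with sex as a covariate and without a filter, and that of Foxa2 with a filter of 5 FPKM and with all 9 libraries in one fit.

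Of the same factors 19 were tested in Smad4 KO and none was called by limma, while 4 had an unadjusted p below 0.05, where 19.1% of all genes had, and 15 a positive change (median 0.29). Insm1 was at 3.27, 2.90 and 4.30 FPKM in Smad4 KO, above all controls at 1.77, 1.75 and 1.51 (0.73, SE 0.17, limma adjusted p = 0.136). Nkx2-2, an enteroendocrine factor, was at 2.58, 2.62 and 3.26 FPKM in Smad4 KO against 1.51, 1.18 and 1.84 in controls (0.61, limma adjusted p = 0.173), and Foxa1 at 13.7, 14.7 and 18.3 FPKM against 13.3, 9.97 and 7.90 (0.56, limma adjusted p = 0.234). The fourth, the tuft cell factor Pou2f3, went the other way, at 2.26, 2.36 and 2.67 FPKM in Smad4 KO against 8.87, 4.34 and 3.11 in controls (-0.81, limma adjusted p = 0.259). Foxa2 and Klf4, called in double mutants, changed by 0.43 and -0.31 in Smad4 KO (limma adjusted p = 0.336 and 0.335). Insm1 and Nkx2-2 lay above all controls in a group where Neurog3 itself was near the control level in 2 of 3 libraries. Groups did not overlap for 5 of the 19 factors tested, against 26.4% of all genes. The 14 enteroendocrine markers summed to 935, 524 and 553 FPKM in Smad4 KO against 359, 360 and 522 in controls, and to 473, 390 and 658 FPKM in double mutants against 370, 382 and 544 in controls. Of the 13 tested, all had a positive change in Smad4 KO but none was called by limma, with 6 at an unadjusted p below 0.05. In double mutants 8 of the 13 had a positive and 5 a negative change, and 1 was called higher (7.69%, against 18.5% of all genes called). This was the peptide hormone gene Pyy, at 23.0, 15.7 and 17.0 FPKM against 4.45, 1.77 and 6.84 in controls (limma adjusted p = 0.0243). Pyy also lay above all controls in Smad4 KO, at 41.7, 16.7 and 34.8 FPKM against 4.32, 1.67 and 6.56 (limma adjusted p = 0.111).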

How the data were processed

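The authors deposited FPKM per gene and library in 2 tables, each scaled across its own 6 libraries; per the submitters' processing notes, TopHat2 2.1.1, Cuffnorm 2.2.1 and Cuffdiff 2.2.1 were used with genome build mm9. Which gene annotation was used is not given there. Per the labels' protocols, crypts were released with 3 mM EDTA, passed through a 70 micron filter and sequenced with a TruSeq kit, version 2, which does not mark strand. Between the tables each control differed by 1 factor (1.03, 1.06 and 1.04 for controls 0, 1 and 2).

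Fits used limma 3.58.1 (R 4.3.3), one per table, on log2 values of FPKM plus a pseudocount of 1. Genes averaging 1 FPKM or more entered (11849 and 11762 genes), with a mean-variance trend, two-sided tests and Benjamini-Hochberg adjustment over all genes tested. The fit was also run on simulated data, with the outcome not reported here, so how often it finds a true change is not given. A gene that was not called is therefore not shown to be unchanged. The exact two-sided permutation p for 3 against 3 cannot go below 0.1. Depth is unknown, so no counting interval is given.

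The members and lists were chosen with earlier results of these data known. Named genes were the members, Smad4, and from each of the Notch pathway and secretory factor lists the called genes, up to 5 a direction, or the 3 with the smallest p. Olfm4, Hes2, Esam, Cdh5, Pyy, Smoc2, Rgmb, Axin2, Ascl2, Cd3g and Pou2f3 were named after their values were seen. Likeness of genes was the root mean square distance of log2(FPKM + 1) minus the mean of own controls, without predicted or small RNA genes. Alternatives covered pseudocounts, filters, scaling, the trend, all 9 libraries in one fit, a replicate block and each library left out; sex as a covariate, read from Xist (2 of 3 libraries in each mutant group and 1 of 3 controls), was added after the data were seen.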

Additional observations from a re-analysis of the deposited data

How the results depend on the processing

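No alternative called a member in Smad4 KO. In double mutants the 2 called members became 1 without a filter, with all 9 libraries in one fit and with sex as a covariate, each time Neurog3, and 0 to 1 on leaving out 1 library. The 4 genes called in all in Smad4 KO (1 higher, 3 lower) became 2 with pseudocount 5, 8 with quantile normalization (4 and 4), 7 without the 50 highest genes in the scaling (4 and 3), 418 with 9 libraries in one fit, 2 with sex as a covariate and 5 to 16 without 1 library. The 2173 in double mutants became 1392 without a filter and 30 to 1555 without 1 library. The 5 other Notch pathway genes called in double mutants became 3 with sex as a covariate and 0 to 5 without 1 library, and 0 in Smad4 KO became 1 (Itch) with 9 libraries. The 3 other secretory factors became 1 (Klf4) without a filter or with sex as a covariate, and 0 to 2 without 1 library. The causes were not tested, except that fits without a library hold fewer samples.

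Changes near 0 turned sign. In Smad4 KO, Hes1 was 0.052 with quantile normalization and 0.0070 without the 50 highest genes, and with sex as a covariate Dll4 was -0.046 and Atoh1 -0.013. In double mutants Notch1 was 0.0096, 0.047 and 0.024 in those 3 settings. Without 1 library, ranges that crossed 0 in Smad4 KO were -0.058 to 0.16 (Notch1), -0.13 to 0.069 (Hes1), -0.16 to 0.36 (Atoh1), -0.092 to 0.24 (Dll4), -0.0044 to 0.21 (Neurog3), -0.10 to 0.41 (Gfi1) and -0.30 to 0.48 (Spdef), and in double mutants -0.15 to 0.14 (Notch1), -0.29 to 0.49 (Spdef), -0.014 to 0.25 (Dll4), -0.020 to 0.49 (Gfi1) and -0.028 to 0.35 (Atoh1). No setting moved the median of all genes by over 0.1.

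Libraries with the same number deviated together with correlations of -0.111, 0.223 and -0.0987 in Smad4 KO and 0.072, 0.132 and 0.0374 in double mutants. The labels do not say whether libraries with the same number were paired. In double mutants, but not in Smad4 KO, each library correlated best with the control of its own number. With the replicate block 1 gene was called in Smad4 KO, where Smad4 itself had a limma adjusted p of 0.234, and 1602 in double mutants, with both members kept.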
